A study of Sus scrofa with 8 samples.

Results

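Cytotoxic lymphocytes, which are natural killer (NK) cells and killer T cells, destroy infected or altered cells on contact. In one route they empty granules onto the target: perforin (PRF1) forms pores in its membrane, and lytic proteins such as granulysin (GNLY) enter through them. In the other, a death ligand on the killer's surface, such as Fas ligand (FASLG), engages a death receptor on the target and starts its caspases. KLRK1, also called NKG2D, is an activating receptor that reads stress-induced ligands on the target, and CCL5, also called RANTES, is a chemokine that killer T cells store and release. These 5 genes were examined in whole blood, out of 1916 genes that could be named on the array. They were proposed with their values on these same arrays known, so their differences between the diets are given as a description and support no test.

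The blood came from 8 female Clawn miniature pigs aged 8 to 9 months, of which 4 (control) ate a standard dry feed. The other 4 (SDW) ate that feed with water and shochu distilled water added, each making up an equal part of the weight. Shochu is a liquor distilled in Japan. No genotype or other treatment is named for either diet, and the labels also call the animals conventional. On the time of sampling the labels differ: the design text of the series has 12 weeks of feeding, while the sample descriptions name 14 weeks for both animals numbered 1, then 15, 16 and 17 weeks for those numbered 2, 3 and 4. Each animal gave 1 single-colour array with probes of 60 bases. The study set out to follow the physiology of pigs on SDW through blood mRNA.

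The probes were found by gene symbol or full name in the array files. Of 6 probes for the 5 genes, 2 carried the current name (KLRK1 and PRF1). The other 4 carried an older name that the pig gene table pairs with the gene: NKL for GNLY, RANTES for both probes of CCL5 and TNFSF6 for FASLG. A probe entered the test where 4 or more of the 8 arrays read it well above background. GNLY, CCL5 through 1 of its probes, and KLRK1 met this, so 3 of the 6 probes are measured. The second CCL5 probe and those of PRF1 and FASLG are dim, and their values are given with that mark.

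The probe sequences are shown because the values turn on what each probe can bind, and because the CCL5 probes differ. They are written 5′ to 3′ as the array files give them. For GNLY the last 30 bases are shown, with capitals on ATTAAA, a variant of the signal that precedes the poly(A) tail; AATAAA or ATTAAA, read on the strand of the probe, stands in 16.7% of all probes. For the measured CCL5 probe the last 30 bases are shown, with its closing run of A in capitals. For the second CCL5 probe the 24 bases are shown that another, unnamed probe also holds. The remaining 3 are whole, with no base marked.
GNLY: tcaggagaATTAAAtgtcatgcaagattaa
CCL5, measured probe: ccctagttgtcatcaagtatgtttAAAAAA
CCL5, second probe: gtttttgttgttttgttttgtttt
KLRK1: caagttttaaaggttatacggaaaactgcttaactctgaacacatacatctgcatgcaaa
PRF1: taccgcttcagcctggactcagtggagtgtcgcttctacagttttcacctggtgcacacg
FASLG: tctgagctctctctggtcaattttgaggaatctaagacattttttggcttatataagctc

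The GNLY and measured CCL5 probes held a stop codon in every forward reading frame, whereas 1 frame of the KLRK1 probe, 2 of the FASLG probe and 3 of the PRF1 probe were open. Over all probes, 76.0% had at least 1 open forward frame. The PRF1 probe was the richest in G and C, at 55% of its bases, and the KLRK1 probe the poorest, at 35%; the median of all probes was 40%, with the 5th and 95th percentiles at 35% and 45%. The measured CCL5 probe shared no run of 16 bases with any other probe, and neither did those of KLRK1 and PRF1. The search took in both strands. As written, the GNLY probe shared such a run with 1 other probe. The FASLG probe shared one with the reverse complement of 2 others, and with none as written. The second CCL5 probe shared one with 18 others, in its stretch of g and t, some as written and some as the reverse complement. The CCL5 probes had no more than 5 bases in a row in common with each other, and start at base 760 and base 2012 of 2 different source sequences.

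Levels are log2 spot signals minus the 75th percentile of the same array, so 0 is the level that 75% of the probes of that array fall below. The 75th percentile of the signal lay between 39.9 and 73.1. An array read 35.2% to 43.5% of its 43603 probes well above background and had 0 saturated spots. The arrays lay on 3 slides that each held both diets. Slide 1 carried 1 control (control 3) with SDW 2 and SDW 3, slide 2 carried controls 2 and 4 with SDW 1, and slide 3, whose scan fell on a second day, paired control 1 with SDW 4. Over the 17352 probes in the test the median share of a probe's spread lying between slides was 44.7%, and that between diets 4.97%. Each share was taken on its own. There are more slides than diets, and slides 1 and 2 hold the diets unequally. The slide and diet shares therefore overlap and are not directly comparable. Of the blood cell markers, 5 of 5 named neutrophil genes, 4 of 4 monocyte genes, 4 of 4 platelet genes and 3 of 4 T cell genes on the array were measured (CD4 was not), and 1 erythroid gene, HBE1. In whole blood, fewer cells of a type and less RNA per cell cannot be told apart.

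The comparison of SDW with control called none of these genes. Over all 17352 probes limma called 0 at an adjusted p under 0.05, which is 0% (smallest adjusted p 1.00 after rounding). Before adjustment, 251 probes had a p under 0.05, of which 90, or 0.519% of the probes tested, were lower in SDW animals. Without slide 3 limma called 1 probe (0.00576%), which is unnamed and belongs to none of these genes. The p-values measure the spread between the 4 animals of each diet. This comparison had no term for slide, so differences between slides are part of that spread. The number of arrays limits the precision of the p-values. All 3 measured genes had a lower mean in SDW animals, where 47.1% of all probes in the test did, and nothing is read from this count since the genes were chosen with these values known. The sizes ran from 0.17 for CCL5 to 0.71 for GNLY, against a median absolute difference of 0.17 over all probes in the test. GNLY and KLRK1 were lower by 0.5 or more, as were 6.06% of the probes.

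GNLY, the granule protein that lyses microbes and target cells, had the largest diet share of its spread among the 3 measured genes. Its level in controls 1 to 4 was 8.85, 8.82, 9.38 and 8.63. In SDW animals 1 to 4 it was 7.55, 8.10, 8.43 and 8.74. SDW 1, SDW 2 and SDW 3 lay below every control, while SDW 4 lay above control 4, so the groups overlapped by 1 animal. Every SDW animal lay below every control for 0.386% of the probes in the test and above every control for 0.599%. Controls averaged 8.92 ± 0.32 (SD, n = 4) and SDW animals 8.21 ± 0.51 (SD, n = 4), so the log2 difference was -0.71, standard error 0.30. On the linear scale the control level was 1.64 times that of SDW animals. A difference of -0.71 lay outside the 5th to 95th percentile of all probes in the test, which ran from -0.54 to 0.48. GNLY was chosen with its values known, so nothing is read from this.

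The GNLY difference was larger within slides 1 and 2 than within slide 3; these values have no error of their own. SDW minus control was -1.11 within slide 1, -1.18 within slide 2 and -0.11 within slide 3. With slide as a fixed block the difference was -0.86 with a standard error of 0.25 (limma, adjusted p = 0.732). Without both arrays of slide 3 it was -0.91, and without them and with the slide block -1.14. With 1 array left out it lay between -0.50, without SDW 1, and -0.89, without SDW 4. Diet accounted for 48.5% of the spread of GNLY over the 8 animals, a larger share than for 98.2% of the probes in the test. Slide accounted for 13.4%, a larger share than for 14.3% of them. Nothing is read from the rank of the diet share, since GNLY was chosen with its values known.

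**Figure D1:**
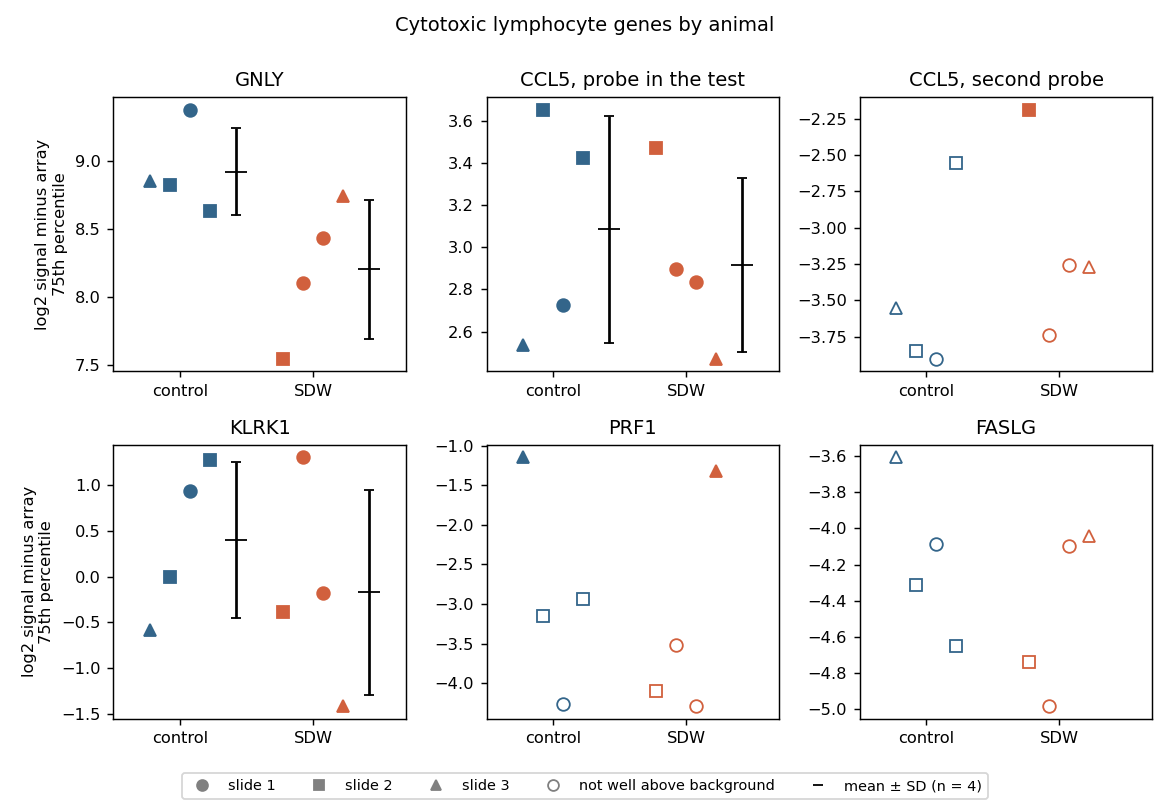
Level of each probe in every animal (y axis, log2 signal minus the 75th percentile of the array; each panel has its own scale), by diet (x axis) and slide (symbol). Open symbols are not well above background, and bars are mean ± SD of 4 animals for the 3 measured probes. GNLY is lower in SDW 1, SDW 2 and SDW 3 than in every control, CCL5 follows the slides, and PRF1 is well above background on both arrays of slide 3 alone.

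KLRK1, the receptor that triggers killing, varied widely between animals of either diet. Controls 1 to 4 stood at -0.58, -0.01, 0.93 and 1.27. SDW animals 1 to 4 stood at -0.39, 1.30, -0.18 and -1.41. SDW 2 was the highest of all 8 animals and SDW 4 the lowest, so the diets overlapped over nearly the whole range. Controls averaged 0.40 ± 0.85 (SD, n = 4) and SDW animals -0.17 ± 1.12 (SD, n = 4). The log2 difference of -0.57 was no larger than its standard error of 0.58. The SD over the 8 animals was 0.97, larger than for 93.0% of the probes in the test, whose median SD was 0.42.

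Set within slides, the mean of KLRK1 was lower in SDW animals each time, though not every SDW animal was lower. On slide 1, SDW 2 (1.30) lay above the control there (control 3, 0.93) and SDW 3 (-0.18) below it. The difference was -0.37 within slide 1, -1.02 within slide 2 and -0.83 within slide 3, and -0.73 with a standard error of 0.40 with slide as a block (limma, adjusted p = 0.744). GNLY and KLRK1 thus both had the lower SDW mean within each of the 3 slides, as did 12.7% of the probes in the test. The higher SDW mean within each slide was seen for 15% of them. The KLRK1 value rests on single animals: it was -0.16 without SDW 4, -0.28 without control 4, -0.90 without control 1 and -1.06 without SDW 2. With normexp background correction, which compresses low signals, it was -0.23. Diet held 9.99% of the KLRK1 spread and slide 53.7%.

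CCL5, the chemokine, separated by slide, and its diets overlapped. Controls 1 to 4 had levels of 2.54, 3.66, 2.73 and 3.42. SDW animals 1 to 4 had levels of 3.47, 2.90, 2.83 and 2.47. The high values are the 3 animals of slide 2 (3.42 to 3.66), the middle ones those of slide 1 (2.73 to 2.90) and the low ones those of slide 3 (2.47 to 2.54), with no overlap between slides. Slide accounted for 96.7% of the CCL5 spread, a larger share than for 99.5% of the probes in the test, and diet for 3.92%. What sets the slides apart here was not tested.

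For CCL5, controls averaged 3.09 ± 0.54 (SD, n = 4) and SDW animals 2.92 ± 0.41 (SD, n = 4), which puts the log2 difference at -0.17, standard error 0.32. Within slides 1, 2 and 3 the difference was 0.14, -0.07 and -0.07. With slide as a block it was 0.01 with a standard error of 0.20 (limma, adjusted p = 0.996), so the direction of the unblocked value was lost. It was also 0.02 without control 2.

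**Figure D2:**
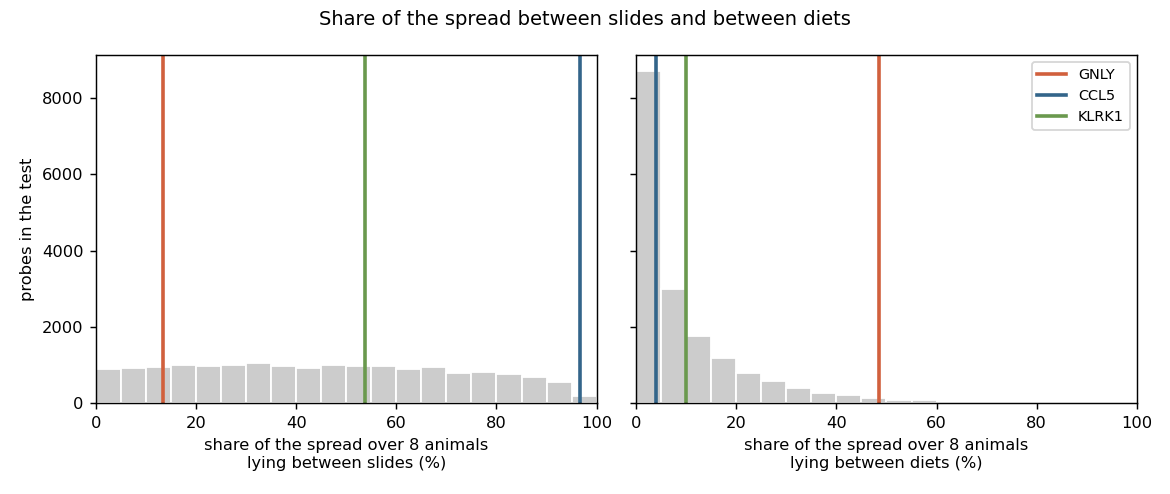
Share of a probe's spread over the 8 animals (x axes, in percent of the sum of squares) that lies between the 3 slides (left) and between the diets (right). Grey bars count the 17352 probes in the test, and lines mark the measured genes: CCL5 lies at 96.7% between slides, and GNLY at 48.5% between diets.

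**Figure D3:**
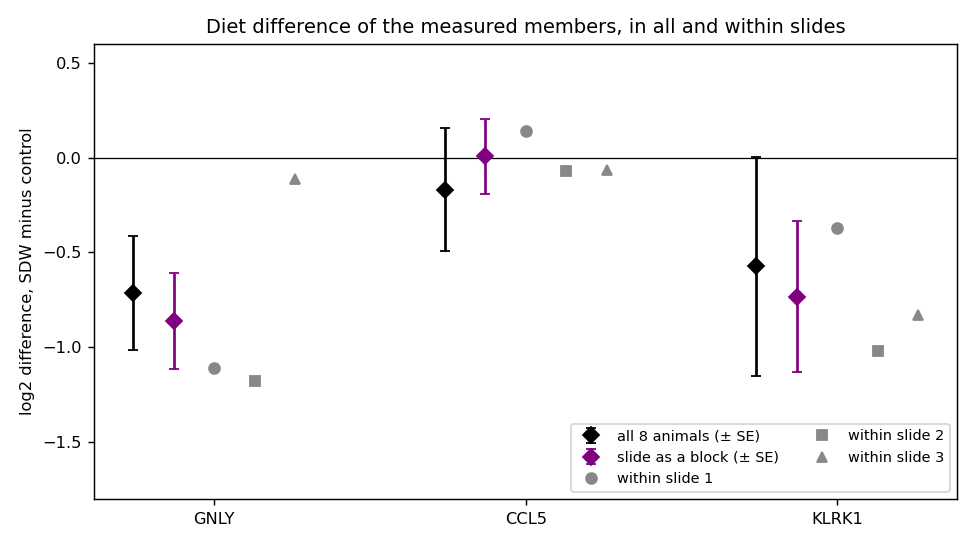
Log2 difference, SDW minus control (y axis), of the 3 measured genes over all 8 animals and with slide as a fixed block (bars are the standard error), beside the difference within each slide (grey symbols, no error). GNLY and KLRK1 lie below 0 within each slide, and CCL5 lies near 0 within each.

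The second CCL5 probe gave no usable level. It was well above background in SDW 1 alone, at -2.19. The other 7 animals ranged from -3.90 to -2.55 and were not well above background, so they have no order and no fold is given.

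PRF1, the pore-forming protein of the granules, was detected on slide 3 and on no other slide. Control 1 and SDW 4 were well above background, at -1.14 and -1.32. Controls 2, 3 and 4 read -3.16, -4.27 and -2.94, and SDW 1, SDW 2 and SDW 3 read -4.10, -3.52 and -4.29, all not well above background. Each of these 6 lay under the lowest level at which any probe was well above background on its own array, a limit that ran from -2.89 to -1.75 over the 8 arrays. The detected animals were 1 of each diet, so the diets could not be compared for PRF1. The same pattern, both arrays of slide 3 and none of the other 6, was found for 134 probes, or 0.307% of all. The opposite pattern, all 6 arrays of slides 1 and 2 and neither of slide 3, was found for 465 probes, or 1.07%.

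FASLG, the death ligand, was not well above background in any animal. Its readings ran from -4.65 to -3.61 in controls and from -4.98 to -4.04 in SDW animals, and on all 8 arrays they were the substitute value that the scanner software writes near background. Of all probes, 49.3% were well above background on none of the 8 arrays. No level, order or fold is given for FASLG; its mRNA was not detectable with this probe.

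No pair of the measured genes passed a test of correlation over the animals. The 3 pairs were compared over all 8 animals by the exact permutation test over 40320 pairings, two-sided, with Benjamini-Hochberg adjustment over the 3. For GNLY and CCL5, Pearson's r was -0.38 (exact p = 0.366, adjusted p = 0.618) and Spearman's rho -0.43 (exact p = 0.299, adjusted p = 0.449). For GNLY and KLRK1, r was 0.07 (exact p = 0.885, adjusted p = 0.885) and rho -0.14 (exact p = 0.752, adjusted p = 0.752). For CCL5 and KLRK1, r was 0.33 (exact p = 0.412, adjusted p = 0.618) and rho 0.48 (exact p = 0.243, adjusted p = 0.449). The values moved with the animals used. Without control 3 and SDW 1, the animals farthest from the GNLY median, r was 0.07 for GNLY and CCL5 and -0.60 for GNLY and KLRK1. Without control 2 and SDW 1, r of CCL5 and KLRK1 was 0.76. A slide holds at most 3 animals, so slide means were subtracted in place of a value per slide: r was then -0.12, 0.32 and -0.16 for the pairs in the order above.

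The genes whose pattern over the 8 animals was most like that of each gene were sought among 1088 named genes in the test. The r values are a measure of likeness with no test, and the animals share slides. Most like GNLY were PTH1R, a parathyroid hormone receptor (r = 0.93), ADRB1, a beta-adrenergic receptor (0.87), and GNAI2, an inhibitory G protein subunit (0.87). PTH1R stood at -0.59, -1.01, -0.77 and -1.10 in controls 1 to 4 and at -2.60, -2.02, -1.71 and -1.38 in SDW animals 1 to 4. The diets did not overlap for PTH1R, as for 0.386% of the probes in the test, and nothing is read from this in a gene picked for its likeness to GNLY. Without control 3 and SDW 1 its r was 0.91, while those of ADRB1 and GNAI2 were 0.39 and 0.31. Most opposed to GNLY were FHL1 (-0.90), the phosphatase subunit PPP1CC (-0.88) and the deacetylase SIRT1 (-0.88). Without the same animals their r was -0.42, -0.82 and -0.57.

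Most like CCL5 were PLAGL1, a zinc finger protein (r = 0.95), NR3C1, the glucocorticoid receptor (0.93), and PPBP, a platelet chemokine (0.89). Most opposed were TFIP11 (-0.93), the monocarboxylate transporter SLC16A1 (-0.93) and TRO (-0.90). Most like KLRK1 were the ribosomal protein RPL22 (0.96), the kinase RPS6KB1 (0.96) and annexin ANXA1 (0.95), and most opposed were methionine synthase MTR (-0.98), TNNI3 (-0.94) and CNPY3 (-0.91). No gene stood in the lists of more than 1 of the 3, and none of the 3 was named for another.

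The other genes of the killing machinery were read from lists chosen by function, and 0 of their measured genes passed the limma threshold. Among lytic granule effectors 3 of 13 genes were on the array by name: GNLY, the undetected PRF1, and SERPINB9, which protects killer cells from their own granzyme B and differed by -0.16 with a standard error of 0.27. GNLY, which was chosen with its values known, stood further from 0 than the 1 other measured gene of its list, and nothing is read from this. Their difference was not tested.

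Of killing receptors, adaptors and their ligands, 6 of 29 genes were measured beside KLRK1, 4 higher and 2 lower in SDW animals, with a median of 0.02; the median of all probes in the test was also 0.02. With slide as a block the list's median was -0.03. HCST, the adaptor DAP10 through which KLRK1 signals, differed by 0.06 (standard error 0.24), while its levels ran from 6.92 to 7.69 over all animals. The adhesion receptor CD2 differed by -0.46 with a standard error of 0.30, the adaptor SH2D1A by 0.43 with 0.31, and FCGR3A, the Fc receptor CD16, by -0.14 with 0.26. ULBP1, a stress ligand of KLRK1, was on the array and not measured. The receptor and its adaptor thus stood at -0.57 and 0.06, each within its error.

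Further NK receptor probes were picked by their description after the lists were set. Those described as KLRF1, KLRA1 and NCR2 were not well above background on any array. A probe described as like mouse KLRE1 was measured in all animals, at -0.32, 0.15, 0.41 and 1.48 in controls 1 to 4 and -0.11, 0.74, -0.69 and -0.97 in SDW animals 1 to 4. The difference was -0.69, standard error 0.46. Between the means within slides 1, 2 and 3 it was -0.39, -0.93 and -0.65, each below 0, as for 12.7% of the probes in the test. On slide 1, SDW 2 (0.74) lay above the control there (control 3, 0.41). For a probe described as like a bovine NKR-P1 receptor the difference was -0.01, standard error 0.47, and within slides 1, 2 and 3 it was -0.72, 0.06 and 0.32.

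For granule release, which carries the granules to the contact site, 5 of 12 genes were measured, 3 higher and 2 lower with a median of 0.10. LAMP1, a membrane protein of the granules, differed by -0.36 with a standard error of 0.30. LYST, which sorts granules, differed by 0.12, WAS, an actin regulator, by 0.11 and RAB27A, which docks granules, by 0.10, with its other measured probes of the opposite sign. None of the 5 exceeded the absolute difference of GNLY, which was chosen with its values known, so nothing is read from this.

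Of death ligands, death receptors and caspases, 10 of 16 genes were measured, 3 higher and 7 lower with a median of -0.08. For CFLAR, which inhibits death receptor signalling, the diets did not overlap: the lowest control was at 2.65 and the highest SDW animal at 2.48. It was the 1 gene of the 10 without overlap, where 0.386% of all probes in the test lay wholly lower and 0.599% wholly higher in SDW animals. Nothing is read from this count, since the lists were chosen with earlier results of these data known. CFLAR was not called by limma. Its difference was -0.66 with a standard error of 0.24. TNFSF10, the death ligand TRAIL, differed by -0.40 (standard error 0.74), and in each diet 3 animals read it well above background. The pore former BAX differed by 0.27 and the cytokine LTA by -0.20. FAS, the receptor of the undetected FASLG, differed by -0.06 with a standard error of 0.34.

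Of CCL5 receptors and lymphocyte chemokines, 7 of 13 genes were measured beside CCL5, 1 higher and 6 lower with a median of -0.42. The 6 include CCL3L1, at 0.00 after rounding, and 47.1% of all probes in the test were lower. With slide as a block the list's median was -0.17. CCL4, a chemokine of activated lymphocytes and myeloid cells, differed by -0.61 (standard error 0.37) in all, and by -0.42, -1.10 and -0.78 within slides 1, 2 and 3. Of the receptors, CCR1, found on myeloid cells, differed by -0.24 with a standard error of 0.34, its second probe having the opposite sign, and CCR3, found on eosinophils and basophils, by 0.53 with 0.38. CXCR3, a receptor of activated T and NK cells, differed by -0.45 with a standard error of 0.39. CCL5 at -0.17 was nearer to 0 than 6 of these 7, the exception being CCL3L1 at 0.00.

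Transcription factors and cytokines of killer cells came last. Of 3 measured factors out of 12, STAT5B differed by -0.30, STAT4 by -0.19 and ID2 by 0.26, with standard errors from 0.22 to 0.27. Of 4 measured cytokine pathway genes out of 15, IL15, the growth factor of NK cells, differed by 0.39 (standard error 0.38) and IL18 by -0.39 (0.50). The kinases TYK2 and JAK1 differed by -0.21 and 0.08. IL15 was well above background in 3 animals of each diet.

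**Figure D4:**
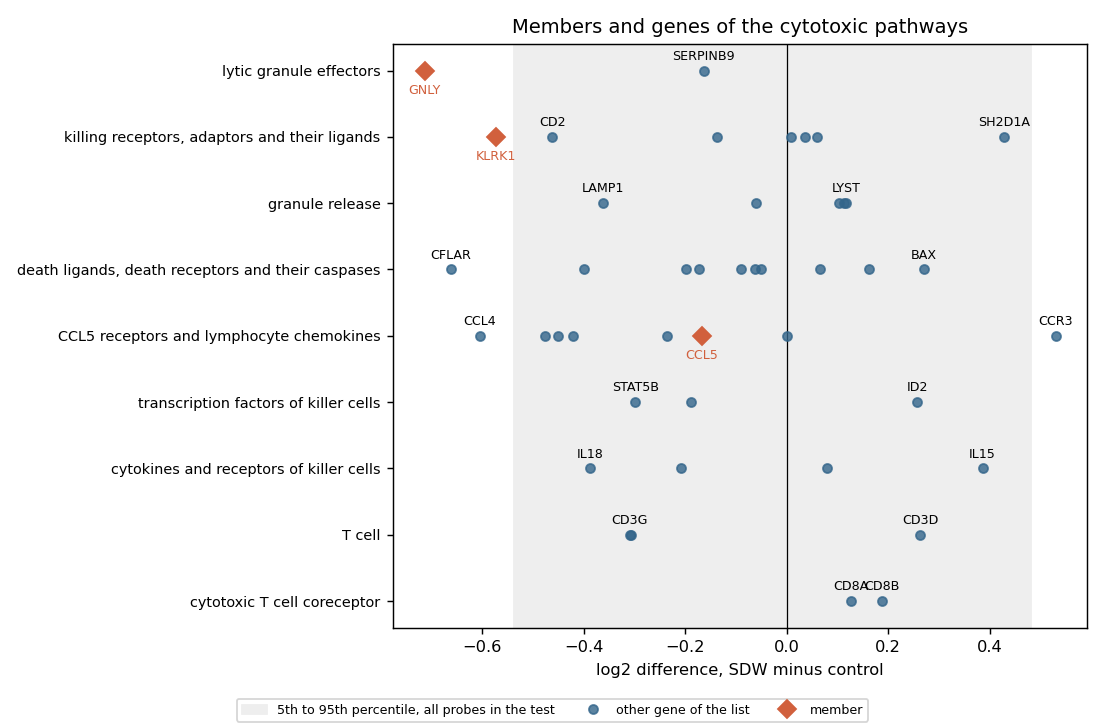
Log2 difference, SDW minus control (x axis), of the measured genes of each list (rows); diamonds are the 3 genes examined here and circles the other genes. The grey band spans -0.54 to 0.48, the 5th to 95th percentile of all probes in the test; GNLY, KLRK1, CFLAR and CCL4 lie below it and CCR3 above it.

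Markers of the cells that could carry these mRNAs were set beside them. CD8A and CD8B, the chains of the killer T cell coreceptor, differed by 0.13 and 0.19, against standard errors of 0.42 and 0.32. The T cell gene CD3E, whose protein sits in the antigen receptor complex, had a difference of -0.31 (standard error 0.44). The mean level over the 3 measured T cell genes ran from 2.90 to 3.33 in controls and from 2.72 to 3.38 in SDW animals, 1 of the 3 being higher in SDW animals and 2 lower. The other measured probe of CD3G had the opposite sign, at 0.26 against -0.31 for the probe used. The 2 other measured probes of CD3D differed by 0.44 and -0.86, against 0.26 for the probe used, so these values depend on the probe taken. The reference gene ACTB, of the cytoskeleton, differed by 0.17 (standard error 0.22), and 1 of its 3 other measured probes had the opposite sign.

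Granulocyte markers are given beside the GNLY difference. All 5 measured neutrophil genes (TREM1, LTF, NCF1, MMP9 and ALOX5AP) had a lower mean in SDW animals, as did 47.1% of all probes in the test. Their median was -0.76, and none passed the limma threshold. TREM1 and NCF1 were lower in SDW animals within each of the slides. LTF, MMP9 and ALOX5AP were lower within slides 1 and 3, and higher within slide 2 by 0.72, 0.85 and 0.16. The mean level over the 5 genes ran from 5.04 to 6.46 in controls and from 4.61 to 5.58 in SDW animals. The 3 measured eosinophil and basophil genes (CCR3, MS4A2 and ALOX15) had a higher mean, with a median of 0.82. Their mean level ran from 0.70 to 2.14 in controls and from 1.95 to 3.00 in SDW animals. MS4A2 was well above background in 3 of the 4 controls, and its lowest control value, -3.10, enters these means. ALOX15 differed by -0.01 within slide 1. Of the 4 measured monocyte genes 3 were higher and 1 lower. The lower one, CD14, differed by -0.73, was below 0 within each slide, and had a second probe at -1.19. CD163 and LYZ differed by 0.10 and 0.05, with standard errors of 0.48 and 0.51. CCR2, a chemokine receptor of monocytes, differed by 0.88 with no call in limma, and was named after its values were seen. For CCR2 every SDW animal lay above every control, as for 0.599% of the probes in the test. The part of these cells in the GNLY and KLRK1 values was not tested.

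Slide 3 set several of these genes apart in both diets. CD8A was lowest there, at 0.68 in control 1 and 0.69 in SDW 4, with the other 6 animals from 1.68 to 2.35, and CCL5 and KLRK1 also had their 2 lowest values there. CD3E was highest there, at 3.46 and 2.79, with the others from 1.15 to 2.11, and TYK2 too, at 1.66 and 1.34. PRF1 was detected there alone, and GNLY was at 8.85 and 8.74, inside the range of the others. Slide 3 was scanned on another day and holds 1 animal of each diet. By the numbering used here, the sample descriptions give them 14 weeks (control 1) and 17 weeks (SDW 4). By the numbering of the authors' value table both are number 4, with 17 weeks. Which of slide, scan day, week and animal goes with these values cannot be told apart.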

How the data were processed

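Whole blood was kept in PAXgene tubes and Cy3-labelled cRNA was hybridised, per the labels' protocols. The deposited scanner files hold spot intensity on a linear scale from Agilent Feature Extraction (10.1.1.1 per the file headers, 9.5.3.1 per the submitters' processing notes), background-subtracted and detrended by the authors, with no normalization between arrays. The authors' value table holds intensity values made by a method not given in the sources used here; 7 of its 8 columns matched a scanner file of the same diet but of another replicate (Spearman's rho 1.00, against 0.857 to 0.906 for the labelled one), and it served as an alternative.

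Spots marked as controls or outliers were dropped, repeat spots of a probe averaged, and log2 taken minus the array's 75th percentile. Diets were compared with limma 3.58.1 in R 4.3.3 (lmFit, eBayes, two-sided, Benjamini-Hochberg, adjusted p threshold 0.05), tested first on simulated data. A gene was read from its measured probe of highest mean level. Genes were named by rule: every probe of the 5 genes; per list, up to 4 genes of largest absolute difference; CD3E, CD8A, CD8B and ACTB; and 3 genes of highest and 3 of lowest r per measured gene. TYROBP and others of the lists count without being named. FAS, CCR1, CCL3L1, ULBP1, CD3D, CD3G, CCR2, CD14, CD163 and LYZ were named outside this rule after their values were seen. So were the granulocyte markers and the extra NK receptor probes. Of the genes set by the rule, 1 is not reported here. Correlations were planned over 10 pairs and computed over 3, since dim probes have no order. The 5 genes and the lists were chosen with earlier results of these data known. Names came from the files and the pig gene table of Sscrofa11.1; 2989 of 43603 probes had one. No genome was used.

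Deviations from the diet means correlated between animals of the same scanner file number at -0.17, 0.11, 0.33 and -0.38, and these numbers were not taken to pair them. The value table numbers most arrays otherwise, and pairing by its numbers was not tested. Alternatives were normexp (offset 50), quantile normalization, another percentile, other filters, the value table, array weights, slide and replicate blocks, and arrays left out.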

Additional observations from a re-analysis of the deposited data

Results flagged for a closer look

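Among 62 sets of 4 animals of one diet, an animal stood apart from the other 3 by Dixon's criterion in 3, where chance marks about 1 in 20. None of these was a level of GNLY, CCL5 or KLRK1. CD3E was at 3.46 in control 1, with the other controls from 1.81 to 1.95. TYK2 was at 1.66 in control 1, with the other controls from 0.16 to 0.35. CD8B was at 0.41 in control 2, with the other controls from -0.58 to -0.42. Control 1 lies on slide 3 with SDW 4, which was at 2.79 for CD3E and 1.34 for TYK2, above the other SDW animals in both.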

How the results depend on the processing

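GNLY and KLRK1 kept a lower mean in SDW animals under all 18 alternatives each, and neither passed the threshold under any. With 1 array left out GNLY ranged from -0.89 to -0.50, KLRK1 from -1.06 to -0.16 and CCL5 from -0.35 to 0.02, and calls over all probes stayed at 0. CCL5 turned to 0.0073 with slide as a fixed block, to 0.022 without control 2 and to 0.035 without slide 3 with that block, an alternative chosen after seeing the data. Without slide 3, with or without the block, limma called 1 of 17352 probes (0.00576%), an unnamed one singled out after its values were seen and not a probe of these genes; the cause was not tested. Replicate numbers of the scanner files as a block called 0 probes (239 at an unadjusted p under 0.05). This block left the differences at -0.71, -0.17 and -0.57 for GNLY, CCL5 and KLRK1. A block by the numbers of the value table was not tried. Counts at an unadjusted p under 0.05 were 251 in the comparison as reported, 162 with normexp, 369 with array weights, 632 with slide as a random block, 1143 as a fixed block, 542 without slide 3, 1439 without it and with the block, 823 of 43603 probes without a filter, 165 of 13658 detected on all arrays, and 179 to 517 with 1 array left out. The r of CCL5 and KLRK1 turned to -0.16 after subtraction of slide means and -0.33 without slide 3; that of GNLY and KLRK1 turned to -0.18 without control 3 and -0.14 without SDW 1, and with 1 array left out it ran from -0.18 to 0.29. A mean over the measured probes of a gene gave no separate value, since each gene had 1. With 4 animals a diet, signals near background left PRF1, FASLG and the second CCL5 probe without a comparison.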
